A study of Caenorhabditis elegans with 2 samples.

Results

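The regions described here are the places in the Caenorhabditis elegans genome where ChIP-seq of the GATA-type zinc finger protein ELT-4 gave a strong signal in each of 2 biological replicates. ChIP-seq recovers DNA that is bound to, or lies close to, a protein by precipitating sheared chromatin with an antibody. The worms were hermaphrodites of strain OP111, genotype unc-119(ed3) III; wgIs111, in which the integrated transgene wgIs111 supplies ELT-4 joined at its C-terminus to GFP and FLAG. All material was whole late embryos taken 3 hours after synchronization by bleaching, and the precipitation used an antibody against GFP, although the antibody field of the labels names elt-4. Both replicates carried the same transgene and unc-119 allele, so there was 1 group, and the tagged protein came from an added transgene. Whole embryos mix all tissues, and these lists hold no expression values with which to check the stage or tissue.

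Members were chosen by signal, which is column 7 of the lists that the authors deposited, a value of their peak caller on a scale that is not stated. Each list held 30000 regions. A region of the pooled list, called on both replicates together, was a member where it shared at least 1 bp with one of the 1000 regions of highest signal in replicate 1 and with one of the 1000 in replicate 2. This gave 453 members among 30000 pooled regions. A further 1958 pooled regions met the rule in 1 replicate only, 985 of them in replicate 1 and 973 in replicate 2, and 27589 met it in neither. Members that overlapped one another were merged into 282 loci, of which 169 held 2 pooled regions, 1 held 3 and the others held 1. Because neighbouring regions of a locus share their reads, regions are not independent, and the intervals given here (95%, exact Clopper-Pearson for a share and Newcombe for a difference of shares) cover the counting of regions only. With 2 libraries of 1 group and members picked by their signal, no p-value was computed.

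GATA factors bind short DNA sequences built around the letters GATA, and in C. elegans a group of them directs the formation of the intestine. ELT-4 is a short member of this family, and its gene neighbours elt-2, which encodes the leading GATA factor of the differentiated gut. Several kinds of short gene appear in the results. tRNA genes are read by RNA polymerase III from a promoter inside the gene, one part of which, the B box, is recognised by the factor TFIIIC. snoRNAs are small nucleolar RNAs that guide the chemical modification or processing of other RNAs, and many of their genes sit in introns of protein-coding genes. The col- genes encode collagens of the cuticle, the coat that the epidermis of the worm secretes.

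The sequences of 8 of the strongest loci are shown because 4 of them hold part of a snoRNA or tRNA gene and 3 of these hold a motif of tRNA promoters: the summit of the locus at F55C5.17 lies in a snoRNA gene, that at F15G9.5 lies in a tRNA gene, and none of the 8 printed windows has TGATAA, although the locus at K12H4.5 has it within 100 bp of the summit. Each run is the summit of the pooled region with 50 bp on each side, on build ce11 (WBcel235, RefSeq), printed 5′ to 3′ on the plus strand and named by the protein-coding gene with the nearest annotated start. Capitals mark GTTCGANNC, the core of the B box, or the reverse complement of it.
K12H4.5 (chrIII:8043913-8044013, plus strand): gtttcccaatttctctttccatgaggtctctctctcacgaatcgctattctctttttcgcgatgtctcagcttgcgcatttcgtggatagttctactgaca
M01F1.9 (chrIII:3499966-3500066, plus strand): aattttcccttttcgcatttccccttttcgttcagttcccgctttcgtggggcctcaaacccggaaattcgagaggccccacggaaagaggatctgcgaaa
F55C5.17 (chrV:12303588-12303688, plus strand): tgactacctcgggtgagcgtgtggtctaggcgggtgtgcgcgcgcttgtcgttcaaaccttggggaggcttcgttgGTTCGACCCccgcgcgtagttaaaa
eel-1 (chrIV:3050556-3050656, plus strand): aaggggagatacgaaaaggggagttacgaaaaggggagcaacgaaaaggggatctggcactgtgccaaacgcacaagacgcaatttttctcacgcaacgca
F15G9.5 (chrX:9743552-9743652, plus strand): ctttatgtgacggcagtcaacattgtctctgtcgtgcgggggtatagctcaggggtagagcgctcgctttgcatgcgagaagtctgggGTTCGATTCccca
W03C9.1 (chrII:11960817-11960917, plus strand): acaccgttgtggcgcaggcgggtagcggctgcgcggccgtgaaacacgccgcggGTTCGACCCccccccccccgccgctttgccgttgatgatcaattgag
str-56 (chrV:15873931-15874031, plus strand): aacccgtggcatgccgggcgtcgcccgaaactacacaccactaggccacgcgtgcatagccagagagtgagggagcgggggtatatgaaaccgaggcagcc
pxn-1 (chrV:8500541-8500641, plus strand): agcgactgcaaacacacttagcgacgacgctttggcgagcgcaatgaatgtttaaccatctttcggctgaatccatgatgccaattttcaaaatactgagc
The window at F55C5.17 held 90 bases of the snoRNA gene C51F7.4, and that at F15G9.5 held 64 bases of the tRNA gene WBGene00014333. The window at W03C9.1 held 20 bases of the snoRNA gene W03C9.9, and that at pxn-1 held 63 bases of the snoRNA gene ZK994.7.

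The next sequences are from 2 regions that were among the strongest in 1 replicate only. Both are also in the authors' irreproducible discovery rate (IDR) list of 342 peaks, which holds 5.92% of such regions. The region at T28H10.2 ranked 8 in replicate 2 and 1736 in replicate 1, and the region at flp-14, a gene for FMRFamide-like neuropeptides, ranked 16 in replicate 1 and 7813 in replicate 2. Neither window holds GTTCGANNC, so nothing is in capitals. Its absence is usual, because it was within 100 bp of the summit in 3.27% of regions of 1 replicate only and 6.62% of members.
T28H10.2 (chrV:12510075-12510175, plus strand): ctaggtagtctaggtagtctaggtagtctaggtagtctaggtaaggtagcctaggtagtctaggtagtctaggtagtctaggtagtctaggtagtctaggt
flp-14 (chrIII:12909828-12909928, plus strand): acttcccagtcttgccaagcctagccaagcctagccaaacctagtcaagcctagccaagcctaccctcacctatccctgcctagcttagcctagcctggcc
The window at T28H10.2 is a tandem repeat in which CTAGGTAG occurs 9 times, and the window at flp-14 holds GCCTA 6 times.

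Most of the strongest regions were not shared by the replicates. From the top 1000 of replicate 1, 289 (28.9%) shared bases with a region in the top 1000 of replicate 2, and in the other direction 293 (29.3%) did. Over pooled regions the members made up 31.5% of the 1438 that met the rule in replicate 1 and 31.8% of the 1426 that met it in replicate 2. In 450 of the 453 members, overlapping regions from the top 1000 of each replicate also overlapped each other.

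The lowest signal that entered the strongest 1000 was 33.7 in replicate 1 and 37.5 in replicate 2. Members had a replicate 1 signal from 33.8 to 169 with a median of 41.4, and a replicate 2 signal from 37.6 to 203 with a median of 46.2. The signals of members were thus mostly close to the threshold, with a long upper tail. Replicate 2 had the higher signal in 323 members (71.3%). The median log2 ratio of replicate 2 to replicate 1 was 0.15 in members, close to the log2 ratio of the medians of the whole lists, which was 0.16. No member differed by a factor of 2 or more between the replicates. The rule itself limits such differences, because members need a signal above the threshold in both. Spearman's rho between the replicate signals across the 453 members was 0.32, as a description of regions that share their libraries and that were cut at a threshold in both.

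**Figure D1:**
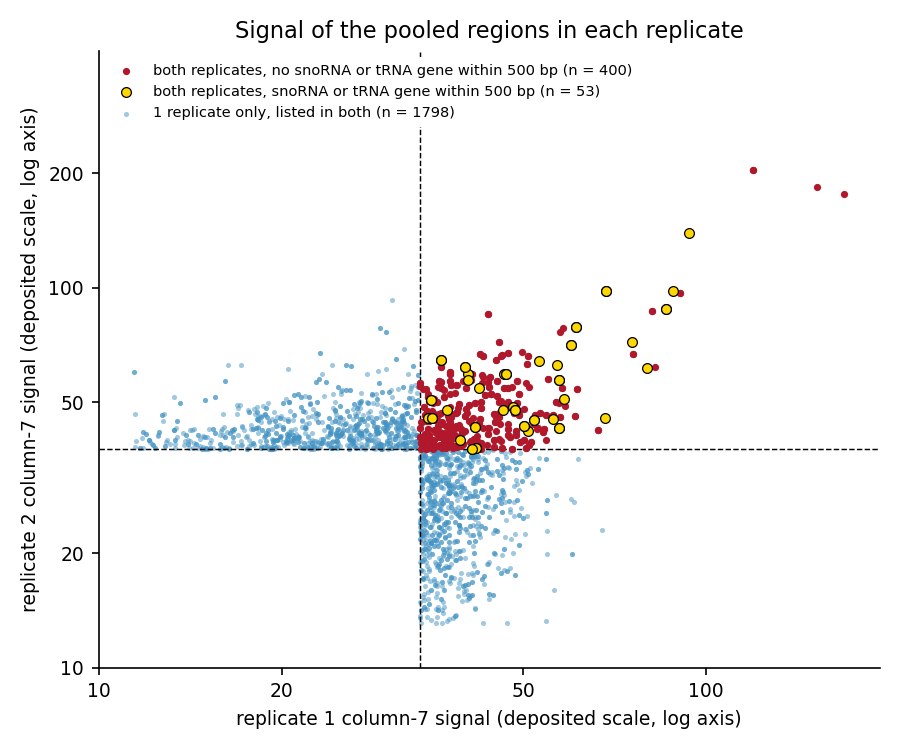
Column-7 signal in replicate 1 (horizontal, log axis) and replicate 2 (vertical, log axis) of members without (red, n = 400) and with (yellow, n = 53) a snoRNA or tRNA gene within 500 bp of the summit, and of the 1798 regions that were among the strongest in 1 replicate only and listed in both (blue). Dashed lines mark the lowest signals of the strongest 1000, 33.7 and 37.5, which the choice of members imposes; yellow points are frequent in the upper right.

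The pooled list gave members a wide range of signal. Their pooled signal had a median of 78.7 and ran from 21.5 to 346, against a median of 56.7 in regions of 1 replicate only and of 30.5 over the pooled list. There were 288 members (63.6%) among the 1000 strongest pooled regions, and the weakest member ranked 29492. This spread lay both within and between loci. The strongest region of each of the 282 loci had a median pooled signal of 87.6, with a range from 27.1 to 346. The 171 other regions of those loci had a median of 38.3. Of the 165 members beyond pooled rank 1000, 155 shared a locus with a member inside it.

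A q-value of at most 0.05 in the pooled list was reached by 296 members (65.3%) and by 745 regions of 1 replicate only (38.0%), against 4.26% of all pooled regions. The authors' irreproducible discovery rate (IDR) list, which holds 342 peaks, took in 226 members (49.9%) and 116 regions of 1 replicate only (5.92%), against 1.14% of all pooled regions. Both q-values and IDR peaks follow the signal that chose the members, so nothing is read from these shares. Seen from the IDR list, 66.1% of its peaks were members, 33.9% were among the strongest in 1 replicate only (48 in replicate 1 and 68 in replicate 2), and none was outside both. An IDR peak lay in 220 of the 282 loci (78.0%).

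The threshold separated regions of nearly equal signal. The last members inside it lay at kel-8, which encodes a kelch-like protein, with signals of 33.9 and 37.6 in replicates 1 and 2, and at egl-27, which encodes a chromatin regulator, with 33.8 and 42.7. The first regions outside it lay at sptf-2, a gene for a zinc finger factor of the Sp family, with 44.2 and 37.5, and at athp-2, with 36.7 and 37.5. The region at sptf-2 was an IDR peak and those at kel-8 and egl-27 were not.

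A few regions were at the very top of 1 replicate and far down the other. The region at T28H10.2 had a signal of 30.3 in replicate 1 and 92.8 in replicate 2, and 66.9% of the 36-mers around its summit occur more than once in the genome. The region at flp-14 had 67.3 in replicate 1 and 23.1 in replicate 2, with no repeated 36-mer. The region at mig-38, a gene named for cell migration, had 60.5 in replicate 1 and 27.3 in replicate 2, at ranks 23 and 4312. In replicates 1 and 2, the regions at hrg-5 (ranks 18 and 1369) and vps-51 (2157 and 16) fell less far than those at flp-14 and mig-38. The regions named here were all IDR peaks, as were 5.92% of regions of 1 replicate only. Among regions strongest in replicate 1 only, 86 of 985 (8.73%) overlapped no region at all in the list of replicate 2, and 74 of the 973 strongest in replicate 2 only (7.61%) overlapped none in the list of replicate 1.

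The strongest shared loci lay outside coding sequence and often at genes for small RNAs. Members were ordered by the poorer of their ranks in the replicates, and the first 20 loci are described. None of the 20 summits lay in a coding exon, 9 lay in introns and 11 between genes. A snoRNA gene lay within 500 bp of 9 summits and a tRNA gene within 500 bp of 1, against 0.677% and 1.34% of all pooled regions. All 20 were IDR peaks, and 16 had the higher signal in replicate 2. TGATAA lay within 100 bp of the summit in 3 of the 20 (15%), near the 12.5% of all pooled regions. More than 5% of the 36-mers around the summit were repeated in the genome in 5, against 9.18% of all pooled regions.

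The locus with the best pair of ranks lay on chromosome I at 933368-933676, 4966 bp upstream of nas-30, a gene for a protease of the astacin family. Its signal was 152 in replicate 1 and 184 in replicate 2, rank 2 in both, and 54.8% of the 36-mers around its summit were repeated in the genome. The locus at K12H4.5, 524 bp upstream of that gene, had signals of 169 and 176, at ranks 1 and 3. The locus 959 bp upstream of the M01F1.9 start, in an intron of M01F1.8, had signals of 119.4 and 203, at ranks 3 and 1. These 3 loci stood above all others in both replicates, and the first 2 hold TGATAA within 100 bp of the summit while the third does not.

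Next came loci at snoRNA and tRNA genes. In an intron of frm-7, which encodes a FERM-domain protein, the summit inside the snoRNA gene C51F7.4 had signals of 93.8 and 139 in replicates 1 and 2. Near sre-23, a chemoreceptor gene on chromosome I, the summit beside the snoRNA gene ZK265.10 had 88.4 and 98.3. Within him-4, the gene for the extracellular matrix protein hemicentin, the intronic summit inside the tRNA gene WBGene00014333 had 85.9 and 88.1, with 26.5% of the 36-mers repeated. The ranks of these loci in replicates 1 and 2 were 4 and 4, 6 and 5, and 7 and 9. Loci at the head of an order by the poorer rank have good ranks in both, so nothing is read from this closeness.

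The other snoRNA loci among the first 20 had signals from 53.1 to 79.8 in replicate 1 and from 61.6 to 98.1 in replicate 2. The summit at W03C9.9 had signals of 68.4 and 98.1 in replicates 1 and 2, that at T06C12.16 had 75.6 and 71.8, and that at ZK994.7, in an intron of the peroxidasin gene pxn-1, had 61.0 and 78.6. The summit at C10C6.8, in an intron of catp-8, a gene for a cation-transporting ATPase, had 59.9 and 70.6. The summit at ZK484.9, in an intron of haf-9, which encodes an ABC transporter of intestinal granules, had 56.9 and 62.5. The summit at T03F7.8, in an intron of the cuticlin-like gene cutl-18, had 79.8 and 61.6, and that at C04G6.12, in an intron of the MAP kinase gene mpk-2, had 53.1 and 64.01. One more non-coding RNA stood among the first 20: the summit in an intron of ints-8, which encodes a subunit of the Integrator complex, lay in rpr-1, the gene for the RNA of RNase P, with signals of 61.4 and 78.7.

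The remaining loci of the first 20 had no snoRNA or tRNA gene within 500 bp. The summit 502 bp upstream of eel-1, which encodes a HECT-type ubiquitin ligase, had signals of 90.7 and 96.9 in replicates 1 and 2, with 68.1% of the 36-mers repeated. The summit 41 bp upstream of idhg-1, which encodes a subunit of isocitrate dehydrogenase, had 81.6 and 86.7 and held TGATAA. The summit 59 bp upstream of atx-2, the worm ataxin-2 gene, had 75.8 and 66.8. The summit at T13C5.6 had 57.5 and 76.2. The summit at Y73F4A.1 had 58.2 and 78.4, with 69.9% of the 36-mers repeated, and that at the F-box gene fbxa-55 had 82.5 and 61.9, with 30.7% repeated. In the pooled list 8 regions were narrower than 470 bp, the width of all others, and all 8 were members in these first 20 loci.

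**Figure D2:**
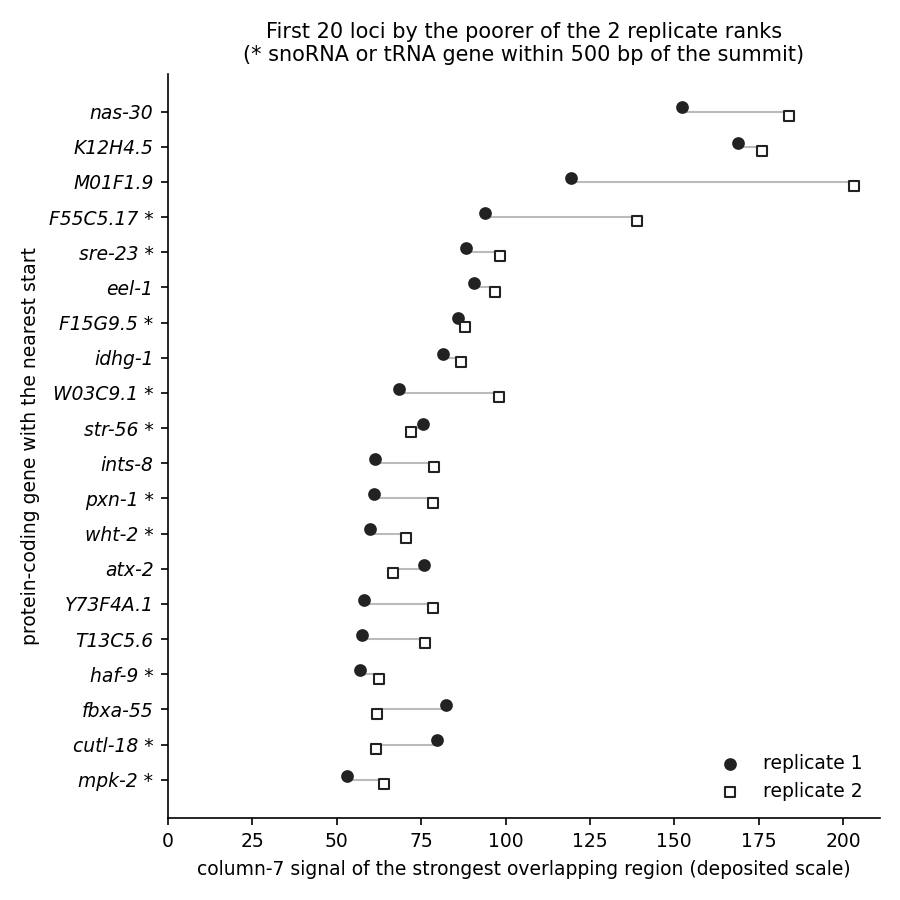
Column-7 signal in replicate 1 (filled circles) and replicate 2 (open squares) of the first 20 loci, from the best pair of ranks at the top down, named by the protein-coding gene with the nearest start; an asterisk marks a snoRNA or tRNA gene within 500 bp. The upper 3 loci exceed all others in both replicates, and 10 of the 20 carry the asterisk.

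The makeup of the loci changed down this order. Loci with a snoRNA or tRNA gene at most 500 bp from the summit numbered 10 of the first 20, 4 of the next 30, 9 of the next 50, 8 of the next 100 and 5 of the last 82. Summits in coding exons made up 0 of the first 20 loci, then 16 of 30, 17 of 50, 54 of 100 and 33 of 82. Over all pooled regions these shares were 2.01% near a snoRNA or tRNA gene and 38.7% in coding sequence. The first 20 loci also had the closest replicate summits, with a median distance of 16 bp, against 63.5 bp in the last 82. The order follows the signal that chose the members, so these counts are a description.

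**Figure D3:**
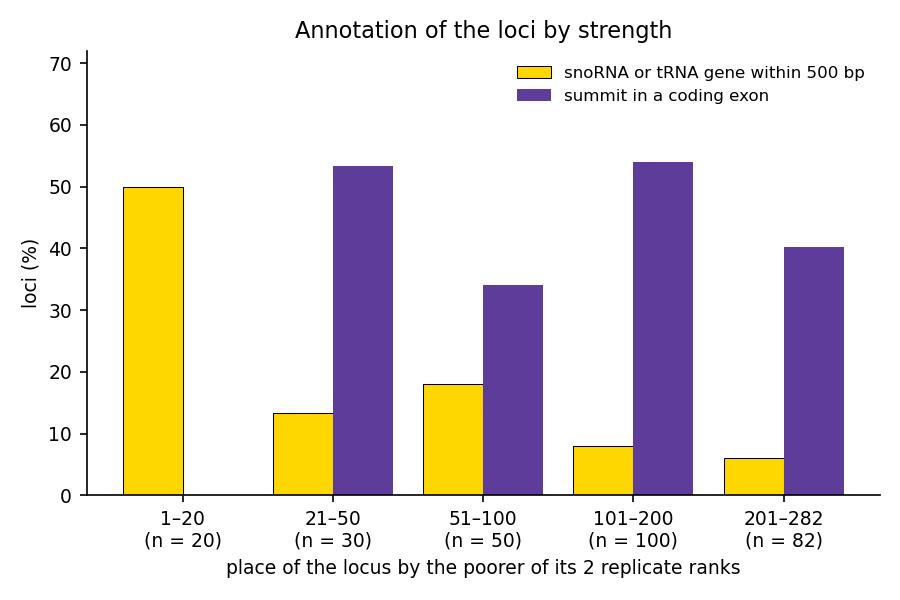
Percent of the 282 loci with a snoRNA or tRNA gene within 500 bp of the summit (yellow) and with the summit in a coding exon (purple), in steps of the order by the poorer replicate rank (horizontal). The yellow bars stand at 50% for the first 20 loci and 6.10% for the last 82, and the purple bars at 0% and 40.2%.

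Genes for snoRNAs lay close to members more often than to regions of 1 replicate only. A snoRNA gene was within 500 bp of the summit in 21 of 453 members (4.64%, 2.89 to 7.00), in 25 of 1958 regions of 1 replicate only (1.28%, 0.828 to 1.88) and in 0.677% of all pooled regions. Members exceeded the regions of 1 replicate by 3.36 percentage points (1.66 to 5.74). The 21 members formed 16 loci at 18 of the 346 annotated snoRNA genes (5.20%). In 10 members the summit lay in an intron, in none was more than 5% of the window repeated in the genome, and none was on chromosome X, which holds 33 of the 346 snoRNA genes. Their median signal was 56.9 in replicate 1 and 64.4 in replicate 2, above the medians of 41.4 and 46.2 over all members.

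Among IDR peaks, which had median pooled signals of 92.7 in members and 82.4 in regions of 1 replicate only, the snoRNA shares lay closer together: 6.64% of the 226 that were members and 5.17% of the 116 that were strongest in 1 replicate only, a difference of 1.46 points (-4.75 to 6.36). Outside the IDR list the share was 2.64% of the 227 other members and 1.03% of the 1842 other regions of 1 replicate only. The part of signal strength in the difference was not tested further.

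Genes for tRNAs also lay close to members more often than to regions of 1 replicate only, and the difference was larger on chromosome X, as given below. A tRNA gene was within 500 bp of the summit in 32 members (7.06%, 4.88 to 9.83), in 62 regions of 1 replicate only (3.17%, 2.44 to 4.04) and in 1.34% of all pooled regions, and members exceeded the regions of 1 replicate by 3.90 points (1.70 to 6.72). Among IDR peaks the difference was 3.65 points (-2.45 to 8.58). The 32 members formed 20 loci at 22 of 612 tRNA genes (3.59%), and in 13 members the summit lay inside the tRNA gene. Their median signals of 46.6 and 47.6 in replicates 1 and 2 were nearer to those of all members than the signals at snoRNA genes were. After the him-4 intron, the leading tRNA loci were at C28G1.2, with signals of 57.2 in replicate 1 and 57.1 in replicate 2, and at WBGene00014540 near col-181, with 46.9 and 59.2.

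Many of these tRNA loci were on chromosome X and in repeated sequence. Of the 20 loci, 11 lay on X (55.0%), which carries 276 of the 612 annotated tRNA genes (45.1%). On X a tRNA gene was near 18 of 71 members (25.4%), 23 of 290 regions of 1 replicate only (7.93%) and 3.03% of all pooled regions; on the other chromosomes it was near 14 of 382 members (3.66%), 39 of 1668 regions of 1 replicate only (2.34%) and 0.999% of all pooled regions. In 20 of the 32 members more than 5% of the window was repeated. Where only windows with at least 95% unique 36-mers were counted, 12 of 393 members (3.05%) and 28 of 1807 regions of 1 replicate only (1.55%) had a tRNA gene, a difference of 1.50 points (0.0379 to 3.76). How the authors placed reads that match several copies is not given in the sources used here, and the part of repeated sequence in the tRNA share was not tested further.

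The B-box core of the printed sequences was counted over all regions. GTTCGANNC, searched on both strands within 100 bp of the summit, was chosen after the sequences of the strong loci had been seen. It was in 30 members (6.62%, 4.51 to 9.32), in 64 regions of 1 replicate only (3.27%, 2.53 to 4.15) and in 2.51% of all pooled regions. Of the 32 members near a tRNA gene, 17 held it (53.1%, 34.7 to 70.9). Of the 21 members near a snoRNA gene 3 did, and of the 400 near neither 10 did (2.50%). Among regions of 1 replicate only it was in 24 of the 62 near a tRNA gene (38.7%) and in 1.71% of the 1871 near neither. Among all pooled regions it was in 36.9% of those near a tRNA gene, within the interval of members, and in 1.99% of those near neither. Near a snoRNA gene 8 of the 25 regions of 1 replicate only held it (32%), a larger share than in members (14.3%), against 10.8% of all pooled regions there. In windows of at least 95% unique 36-mers the difference between the classes was 0.729 points (-0.797 to 3.02).

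Other small RNA genes were few. A miRNA gene was within 500 bp of 5 members (1.10%), against 22 regions of 1 replicate only (1.12%) and 0.437% of all pooled regions. These 5 members were 3 loci: near cel-mir-52 with signals of 61.3 in replicate 1 and 54.1 in replicate 2, at the cluster of cel-mir-54, cel-mir-55 and cel-mir-56 with 34.5 and 54.3, and at cel-mir-90 with 42.0 and 39.6. The snRNA gene R07E5.16 had a locus with 56.1 and 46.3. A piRNA gene was within 500 bp of 1 member (0.221%), against 24 regions of 1 replicate only (1.23%) and 2.01% of all pooled regions.

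**Figure D4:**
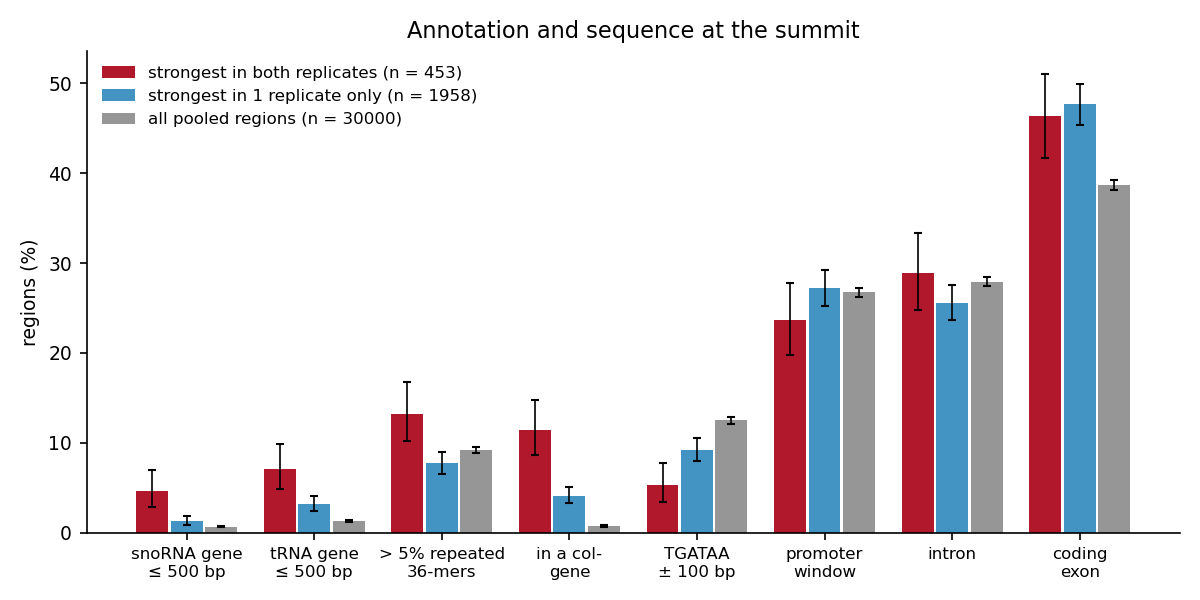
Percent of regions with each annotation or sequence at the summit, in members (red, n = 453), regions strongest in 1 replicate only (blue, n = 1958) and all pooled regions (grey, n = 30000), with exact 95% intervals over regions. The red bars exceed the blue ones for snoRNA genes (4.64% and 1.28%), tRNA genes (7.06% and 3.17%) and col- genes (11.5% and 4.14%), lie below for TGATAA (5.30% and 9.19%), and have overlapping intervals for promoter windows, introns and coding exons.

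Most summits of members nonetheless lay in protein-coding genes. The summit lay in coding sequence in 210 members (46.4%), in 47.7% of regions of 1 replicate only and in 38.7% of all pooled regions, a difference between the first pair of -1.29 points (-6.35 to 3.81). It lay in an intron in 131 members (28.9%), in 25.5% of regions of 1 replicate only and in 27.9% of all pooled regions, a difference of 3.38 points (-1.07 to 8.11). It lay in a promoter window, from 1000 bp upstream to 200 bp downstream of a start, in 107 members (23.6%), in 27.2% of regions of 1 replicate only and in 26.7% of all pooled regions, a difference of -3.60 points (-7.80 to 0.949). Each of these 3 intervals includes 0.

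The chromosomes each held between 66 and 89 members. Chromosome X held 15.7% of members, 14.8% of regions of 1 replicate only and 16.6% of all pooled regions. Chromosome III held 19.6% of members, 15.8% of regions of 1 replicate only and 15.7% of all pooled regions. Loci were scattered: neighbouring loci were a median of 182 kb apart, and 14 neighbouring pairs (5.07%) were within 10 kb.

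The gene group most often holding a member was the cuticle collagens. A member summit lay in the promoter window or body of 284 of the 19973 protein-coding genes (1.42%), and 31 of the 156 col- genes (19.9%) were among them, in 30 loci. A region of 1 replicate only lay at 57 col- genes, against 6.20% of all protein-coding genes, and any pooled region lay at 140, against 59.98%. By the poorer replicate rank the first locus was at col-91, with signals of 51.0 in replicate 1 and 66.2 in replicate 2. Those at col-163 (48.9 and 56.7), col-20 (51.1 and 54.8) and col-108 (58.0 and 54.6) followed, all with summits in coding sequence. No collagen locus was among the first 20.

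Counted by regions, 52 members lay in the body of a col- gene (11.5%, 8.69 to 14.8), against 81 regions of 1 replicate only (4.14%, 3.30 to 5.12) and 0.773% of all pooled regions. The difference between the first pair was 7.34 points (4.55 to 10.7). Among IDR peaks it was 10.2% of members and 7.76% of regions of 1 replicate only, a difference of 2.42 points (-4.72 to 8.30). Of the 52, 51 were in coding sequence, and their median GC content was 60.2%, against 57.7% for the col- regions of 1 replicate only. The col- genes are a large family of similar genes. More than 5% of the 36-mers were repeated in 5 of the 52 members (9.62%, up to 17.5% of a window), in 5 of the 81 regions of 1 replicate only (6.17%) and in 16.4% of all pooled regions in col- genes.

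Among genes of the intestine 2 held a member. None of 7 endoderm GATA factor genes, elt-4 and elt-2 included, had a member or a region of 1 replicate only, and 2 had any pooled region. None of 4 other GATA factor genes, 6 vitellogenin genes or 20 V-ATPase subunit genes had a member. A region of 1 replicate only lay at 1 of these GATA factor genes, 1 of the vitellogenin genes and 0 of the V-ATPase genes. Of 34 genes of intestine structure and function, 1 had a member (2.94%, against 1.42% of all protein-coding genes) and 6 a region of 1 replicate only. The member lay at the ABC transporter gene haf-9, whose summit lies at a snoRNA gene as described. Of 14 transcription factors of the intestine, 1 had a member (7.14%) and 4 a region of 1 replicate only. Beside these counts of 6 of 34 and 4 of 14, 6.20% of all protein-coding genes had a region of 1 replicate only. The member lay at hlh-30, the worm TFEB gene, with signals of 47.6 in replicate 1 and 40.5 in replicate 2. With lists of this size, a share near the 1.42% of all genes gives a count of 0 or 1. Any pooled region lay at 28 of the 34 structure and function genes and 13 of the 14 transcription factor genes. It lay at 4 of the 4 other GATA factor, 5 of the 6 vitellogenin and 15 of the 20 V-ATPase genes. The share of all protein-coding genes was 59.98%.

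The other lists held from 0 to 3 genes with a member, beside the 1.42% of all protein-coding genes. Of 35 body wall muscle genes 3 (8.57%) had one: him-4 at its tRNA genes, unc-54, the muscle myosin heavy chain gene, with 37.9 in replicate 1 and 46.8 in replicate 2, and dys-1, the dystrophin gene, with 51.5 and 39.4. Of 30 neuronal genes 3 (10%) had one, 2 of them through a shared summit at unc-17 and cha-1, the overlapping genes for the acetylcholine transporter and choline acetyltransferase, with 40.4 and 56.7. The third was unc-104, a kinesin gene, with 38.8 and 38.1. Of 77 ribosomal protein genes 3 (3.90%) had one, led by rps-24 with 47.1 and 67.3. Of 269 nuclear hormone receptor genes 3 (1.12%) had one, and of 240 C-type lectin genes 3 (1.25%), led by nhr-217 with 44.7 and 46.4 and clec-78 with 39.7 and 56.8. Of 16 pharynx genes 1 (6.25%) had one, pqn-75, with 46.4 and 54.3. None of 20 epidermis, 72 histone, 63 ceh- homeobox or 37 nas- protease genes had one. A region of 1 replicate only lay at 8 of the 20 epidermis genes, against 6.20% of all protein-coding genes. Any pooled region lay at 59.98% of all protein-coding genes. It lay at 34 of the muscle, 23 of the neuronal, 12 of the pharynx and 20 of the epidermis genes. The counts were 55 for ribosomal protein, 159 for nuclear hormone receptor and 160 for lectin genes. They were 23 for histone, 42 for ceh- and 16 for nas- genes. Gene length was not taken into account.

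Before weighting by GC content, the GATA motif was less frequent at members than at the other regions. TGATAA, read on both strands within 100 bp of the summit, was in 24 members (5.30%, 3.42 to 7.78), in 180 regions of 1 replicate only (9.19%, 7.95 to 10.6) and in 12.5% of all pooled regions. Members fell below regions of 1 replicate by 3.90 points (interval of the difference -6.08 to -1.15). With the 500 strongest regions of each replicate the difference was -1.33 points (-4.23 to 2.71), and among IDR peaks it was -4.64 points (-11.4 to 0.521), both with intervals that include 0. The shorter GATAA, which is contained in TGATAA, was in 15.9% of members, 23.3% of regions of 1 replicate only and 30.2% of all pooled regions. A match is a run of letters and not a binding site.

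Sequence composition moved with the motif. The median GC content within 100 bp of the summit was 51.7% in members, 49.8% in regions of 1 replicate only and 43.3% over the pooled list. The regions of 1 replicate and the pooled list were then weighted to the GC content of members in bins of 5 percentage points. The 5.30% of members with TGATAA stood against 7.49% of regions of 1 replicate and 6.93% of pooled regions. Both weighted shares lie within the interval of members, 3.42 to 7.78. The snoRNA share of members, 4.64%, stood against 1.16% and 0.812% with that weighting, and the tRNA share of 7.06% stood against 2.79% and 1.14%. Among IDR peaks the median GC content was 53.7% in members and 54.2% in those of 1 replicate only.

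Repeated sequence was more common in members than in regions of 1 replicate only. More than 5% of the 36-mers within 100 bp of the summit occurred more than once in the genome in 60 members (13.2%, 10.3 to 16.7). This was so in 151 regions of 1 replicate only (7.71%, 6.57 to 8.98) and in 9.18% of all pooled regions. A second copy within the same window also counts. The difference between the first pair was 5.53 points (2.45 to 9.14), and among IDR peaks it was 5.19 points (-3.21 to 12.4). With weighting to the GC content of members, the share was 7.92% of regions of 1 replicate and 12.2% of pooled regions. The second of these lies within the interval of members. Of the 60 members, 20 were near a tRNA gene and none near a snoRNA gene.

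The replicates placed their summits closer together in members. The distance between the summits of the strongest overlapping region of each replicate had a median of 51 bp in 453 members, of 74 bp in the 1798 regions of 1 replicate only that were listed in both, and of 108 bp in all 16769 pooled regions listed in both. Summits were within 50 bp of each other in 224 members (49.4%), 37.9% of regions of 1 replicate only and 30.1% of all pooled regions. Among IDR peaks the median distances were 35.5 bp in members and 37 bp in those of 1 replicate only, with median pooled signals of 92.7 and 82.4. The part of signal in the difference of all regions was not tested.

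**Figure D5:**
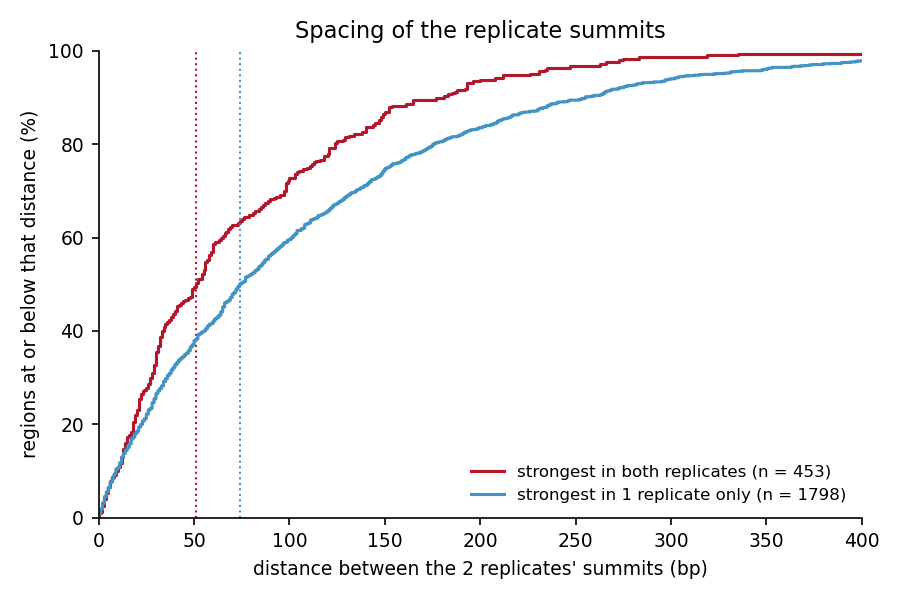
Cumulative percent of regions (vertical) by the distance between the summits of the 2 replicates in bp (horizontal, drawn to 400 bp), in members (red, n = 453) and in regions strongest in 1 replicate only and listed in both (blue, n = 1798). Dotted lines mark the medians, 51 bp and 74 bp, and the red curve lies above the blue one at 50 bp (49.4% and 37.9%).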

How the data were processed

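ChIP-seq of GFP-tagged ELT-4 was done on 2 biological replicates. The authors deposited lists of 30000 regions, called on each replicate and on both pooled against a control, and a list of 342 IDR peaks, on builds ce10 and ce11. The signal values of the deposited lists (column 7) are those of the authors' peak caller, and column 9 holds −log10 of a q-value as deposited. Aligner, caller, versions and the handling of reads with several matches: not given in the sources used here. Depth is unknown, and the control library was not analysed here. Because the scale of the signal is unknown, signals were ranked within each list and not scaled between replicates.

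Work was done on ce11 (the same assembly as WBcel235, RefSeq sequence and Ensembl release 115 annotation) with Python 3.11.15, pandas 2.3.3, numpy 2.4.6, scipy 1.17.1 and matplotlib 3.10.9. For each pooled region the strongest overlapping region of each replicate gave its replicate signal, rank and summit. GC content, motifs and repeated 36-mers were read within 100 bp of the pooled summit, and small RNA genes within 500 bp. A 36-mer was repeated where it occurred more than once in the genome on either strand. Overlap, repeat and interval functions were tested on simulated data. Coordinates are 1-based.

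The members, gene lists, measures and alternatives were chosen with earlier results of these data known. Named are the first 20 loci by the poorer replicate rank, at most 4 genes of each list in that order, the last 2 members inside the threshold and the first 2 regions outside it, and strong regions of 1 replicate only; sequences are from the first 8 loci outside chromosome I that touch no annotated UTR and the first such regions of 1 replicate only. In the list of intestine genes opt-2 was not found in the annotation. The alternatives were other numbers of strongest regions, overlap rules, windows, motifs and distances, merged loci, IDR peaks alone, unique sequence alone, each replicate's own regions as the comparison, weighting by GC content, and the ce10 lists. The rule needs both replicates, so no difference could be had with a replicate left out.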

Additional observations from a re-analysis of the deposited data

How the results depend on the processing

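No paired analysis was possible because there was 1 group and no test. The 453 members became 229 with the 500 strongest regions of each replicate, 990 with the 2000 strongest, and 282 when merged into loci. Differences are members minus regions of 1 replicate only. With the 500 strongest, the GC difference was 0 percentage points and the intron difference -3.39. With the 2000 strongest, the GC difference was 2.99 points and the difference in the distance between replicate summits -33 bp. With IDR peaks alone, the GC difference reversed to -0.498 points, the snoRNA difference was 1.46 points and the summit distance difference -1.5 bp. In unique sequence alone, the tRNA difference was 1.50 points and the GTTCGANNC difference 0.729. The promoter difference was 1.08 points when promoters ran from 2000 bp before to 500 bp after a start. The motif difference was -7.45 points for GATAA and -6.19 points for TGATAA in the whole region. The repeat difference was 1.78 points where over 50% of the 36-mers had to be repeated. The cause of these shifts was not tested. The snoRNA, tRNA, repeat and TGATAA differences kept their sign under every alternative run (snoRNA 1.46 to 4.75, tRNA 1.50 to 6.15, repeats 1.78 to 8.38, TGATAA -7.45 to -1.33), but with IDR peaks alone every one of these 4 intervals included 0, as did that of TGATAA with the 500 strongest. Weighting by GC content, an alternative chosen after seeing the data, is among these, with a TGATAA difference of -2.18 points and no interval. Leaving out chromosome X, where the tRNA shares differed more, is not among these. The coding, intron, promoter and X chromosome differences each took both signs.

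With a replicate left out, the regions strongest in the other had a snoRNA gene in 2.31 to 2.36%, a tRNA gene in 3.93 to 4.87%, TGATAA in 7.93 to 7.99% and repeated sequence in 9.40 to 9.53%. With unknown depth and 2 libraries, the intervals show the counting of regions and not the variation between embryo collections, and 453 members in 282 loci make them too narrow.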
